A study of Arabidopsis thaliana with 12 samples.

Results

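NAC019, NAC055, RD26, ATAF1, ATAF2, NAC102, NAC032, NAP, ORE1 and NAC047 are NAC transcription factors of stress and senescence in Arabidopsis thaliana, a selection and not the whole class. These 10 loci were taken by name from the 32627 loci read by a one-colour array, and were matched to the array by locus identifier. The rule used no measured value, but the group was picked with earlier results of these data known. All 10 were found, on 13 transcript features of 3 or 4 probes each. Transcript levels had been measured in whole 10-day-old seedlings of accession Col-0 grown on agar plates. The groups were seedlings labelled gem1, a T-DNA insertion line of GEM, seedlings labelled GEMoe, which overexpress GEM from the viral 35S promoter, and wild type (WT). Each genotype was sampled after 2 hours with 100 uM abscisic acid (ABA) and without treatment, which makes 6 groups of 2 biological replicates and 12 arrays in all. There is no mock treatment among the labels. What is called the ABA response below therefore includes the handling and the 2 hours themselves, and these parts cannot be told apart.

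NAC factors are plant-specific transcription factors that share a conserved DNA-binding domain at their N terminus and carry variable activation regions behind it. ABA is the hormone of drought, salt stress and seed dormancy, and its signal reaches many stress genes through the ABF and ABI5 bZIP factors. NAC019, NAC055 and RD26 are close relatives that act in drought, ABA and jasmonate signalling. ATAF1, ATAF2, NAC102 and NAC032 form the ATAF group, which answers to wounding, drought, low oxygen and other stresses. NAP and ORE1 promote leaf senescence, the ordered dismantling of an ageing leaf, and NAC047 is known for the upward bending of leaves under waterlogging.

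The values are log2 expression after robust multi-array averaging (RMA), a method that corrects background, makes the arrays alike in distribution and sums the probes of a transcript. Array medians lay between 12.16 and 12.22, and the highest value on any array was 15.95, so that a gene near that level had little room to rise. GEM itself read 15.73 to 15.81 on its brighter feature in GEMoe and 14.13 to 14.48 in WT. The arrays labelled gem1 read 14.38 to 14.61, not lower than WT. A second, dimmer GEM feature read 11.16 to 11.62 on the arrays labelled gem1, above the 9.32 to 9.65 of WT, and in GEMoe it split by replicate, with 11.98 and 11.36 in replicate 1 and 9.38 and 9.56 in replicate 2 (with and without ABA). Where the insertion lies with respect to these probes is not known from the sources used here, so these values do not check the label gem1. Shoot markers stood between 14.56 and 15.90, root markers between 8.67 and 15.93 and seed markers between 9.26 and 15.56. Flower markers stood between 7.69 and 8.39, not far above the lowest value of 6.99. Replicates carry the numbers 1 and 2 in each group, and the arrays with the same number are called a replicate set below. Deviations from the group means moved together within the sets, and the sets differed at 47.0% of all loci.

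ABA raised 9 of the 10 NAC factors. Averaged over the 3 genotypes, the rise passed the test for NAC019, NAC055, RD26, ATAF1, NAC102, NAC032, NAP, ORE1 and NAC047, and none was lower, with a limma adjusted p under 0.05 over all loci (6 ABA against 6 untreated arrays). The background of that count was 5.60% of all loci higher and 5.20% lower. For the same 9 genes all 6 ABA arrays lay above all 6 untreated arrays, which held for 6.14% of all loci. ATAF2 was the exception in both. The median change of the 10 was 2.17 on the log2 scale, against -0.03 over all loci. In a whole seedling, more RNA per cell and more cells of an expressing type cannot be told apart. Of 5 root markers 3 were lower after ABA, namely WER (-1.26), COBL9 (-0.78) and CASP1 (-0.29), while 0 of 4 shoot markers passed by limma, with LHCB2.1 at 0.02 and GAPB at -0.01. RBCS1A, LHCB1.3 and GAPB, 3 of these shoot markers, read 15.74 to 15.90 on all arrays, near the top of the scale, where a change could be missed. The part of these tissue markers in the NAC response was not tested.

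**Figure D1:**
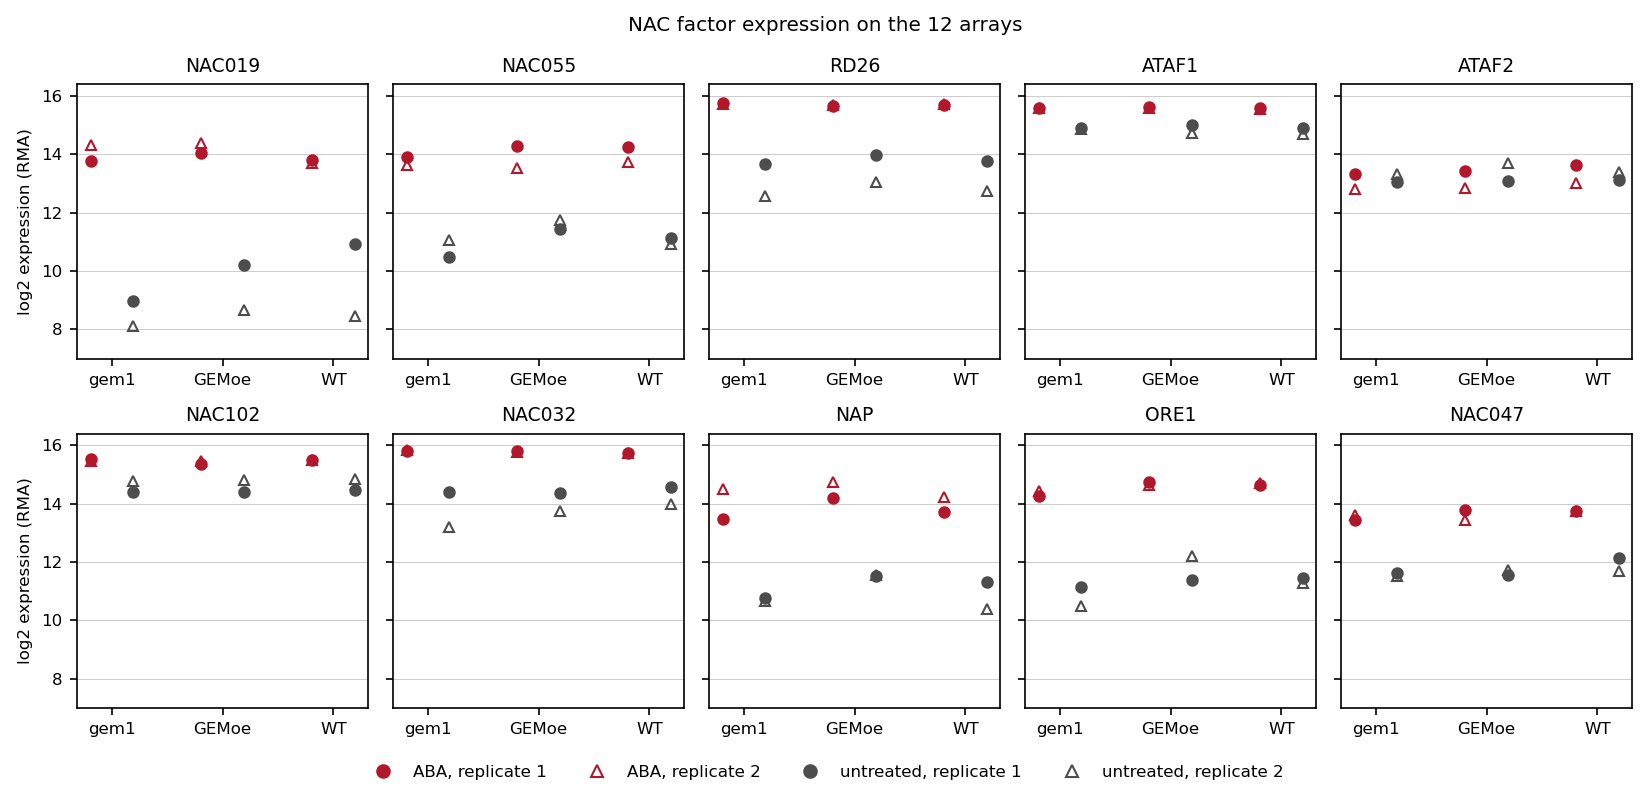
Log2 expression (RMA) of each of the 10 NAC factors on the 12 arrays, by genotype. ABA arrays are red and untreated arrays grey, circles are replicate 1 and triangles replicate 2. The ABA arrays lie above the untreated arrays in 9 of the 10 genes and overlap them in ATAF2.

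NAC019 (AT1G52890) binds stress promoters and acts in jasmonate and ABA signalling. It lies on the reverse strand of chromosome 1, 19697004 to 19698482. Positions are those in the annotation of the array, for which no genome build was stated. After ABA it read 13.77 and 14.32 on the arrays labelled gem1, 14.05 and 14.38 in GEMoe and 13.81 and 13.72 in WT (log2, replicate 1 and 2). Without treatment it read 8.99 and 8.12 on the arrays labelled gem1, 10.21 and 8.65 in GEMoe and 10.94 and 8.46 in WT. The ABA arrays sat in a narrow band of high values, while the untreated arrays were low and spread out, with replicate 1 above replicate 2 in each genotype. The mean was 14.01 ± 0.29 with ABA and 9.23 ± 1.11 without (SD, n = 6 each). NAC019 rose by 4.78 (SE 0.46, 27.5-fold, limma adjusted p = 0.000888).

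NAC055 (AT3G15500), listed in the gene table as NAC3, has overlapping roles with NAC019 in drought and jasmonate responses and lies on chromosome 3, 5234617 to 5236088. It read 13.90 and 13.64 after ABA on the arrays labelled gem1, 14.29 and 13.53 in GEMoe and 14.24 and 13.73 in WT. Untreated seedlings gave 10.47 and 11.08 on the arrays labelled gem1, 11.43 and 11.75 in GEMoe and 11.14 and 10.92 in WT. No untreated array came near any ABA array, and the highest untreated values were those of GEMoe. NAC055 averaged 13.89 ± 0.32 with ABA and 11.13 ± 0.44 without (SD, n = 6 each), a rise of 2.76 (SE 0.18, 6.77-fold, limma adjusted p = 0.000175).

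RD26 (AT4G27410, chromosome 4, 13707888 to 13708861 for the feature used) is a desiccation-induced factor, also known as ANAC072, that promotes ABA-dependent stress gene expression. With ABA it read 15.76 and 15.74 on the arrays labelled gem1, 15.65 and 15.71 in GEMoe and 15.71 and 15.73 in WT. Without ABA it read 13.67 and 12.57 on the arrays labelled gem1, 13.98 and 13.05 in GEMoe and 13.78 and 12.73 in WT. All ABA values were pressed against the top of the scale, and replicate 2 was the lower one in every untreated group. The rise of 2.42 (SE 0.27, 5.35-fold, limma adjusted p = 0.00152) therefore ended where little further rise could be read.

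A second RD26 feature, over a longer transcript (13707240 to 13709149), stood far from that ceiling. It read 10.94 and 10.59 with ABA on the arrays labelled gem1, 11.08 and 9.70 in GEMoe and 10.73 and 9.95 in WT. The untreated arrays read 7.81 and 7.49 on the arrays labelled gem1, 7.61 and 7.45 in GEMoe and 7.96 and 7.48 in WT. The groups were again fully apart, with untreated values close to the bottom of the scale. Its change was 2.86 (SE 0.26, limma adjusted p = 0.000681), against 2.49 (SE 0.28, limma adjusted p = 0.00152) for the other alternative feature, which read 15.66 to 15.76 with ABA.

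**Figure D2:**
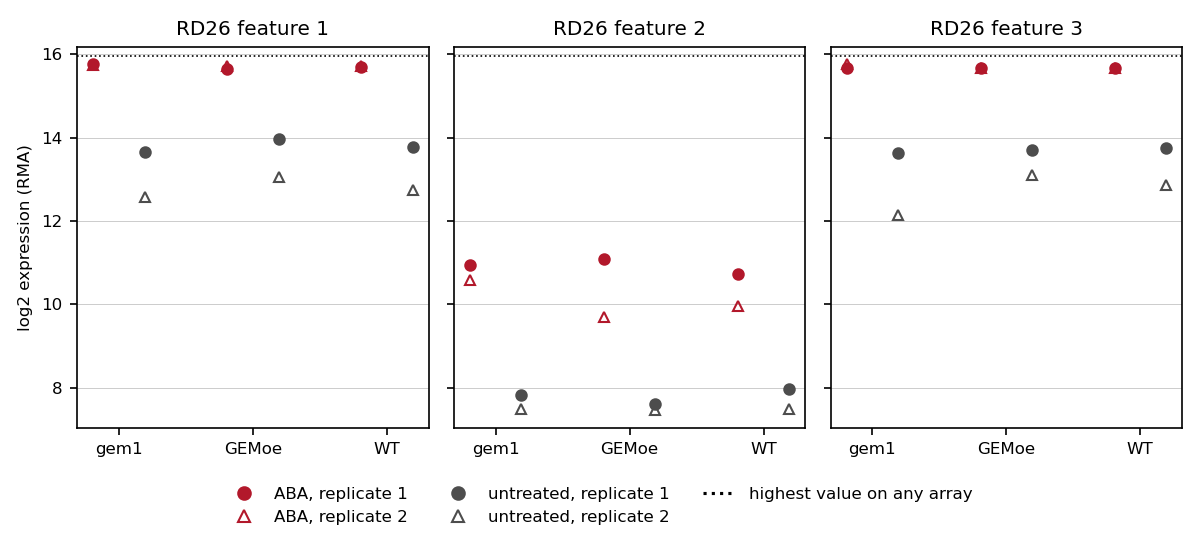
Log2 expression (RMA) of the 3 transcript features of RD26 on the 12 arrays, with ABA arrays in red and untreated arrays in grey. After ABA, features 1 and 3 lie at up to 15.76, close under the highest value on any array (15.95, dotted). Feature 2 runs from 9.70 to 11.08 after ABA and from 7.45 to 7.96 without.

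In the ATAF group, ATAF1 (AT1G01720, chromosome 1, 268330 to 269819), a drought-responsive factor reported to act upstream of ORE1, stood high on every array. Its ABA values were 15.59 and 15.60 on the arrays labelled gem1, 15.64 and 15.59 in GEMoe and 15.59 and 15.57 in WT. Its untreated values were 14.90 and 14.87 on the arrays labelled gem1, 15.001 and 14.74 in GEMoe and 14.91 and 14.71 in WT. The step was small but did not overlap between treatments. ATAF1 rose by 0.74 (SE 0.07, 1.67-fold, limma adjusted p = 0.000689), with little room above its untreated level.

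NAC102 (AT5G63790, chromosome 5, 25526509 to 25528013), known for the low-oxygen response of germinating seeds, behaved in the same range. ABA-treated arrays read 15.55 and 15.47 for the label gem1, 15.35 and 15.47 for GEMoe and 15.49 and 15.49 for WT. Untreated arrays read 14.40 and 14.77 for the label gem1, 14.38 and 14.83 for GEMoe and 14.47 and 14.86 for WT. Here replicate 2 was the higher one in every untreated group. NAC102 rose by 0.85 (SE 0.11, 1.81-fold, limma adjusted p = 0.00334).

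NAC032 (AT1G77450, chromosome 1, 29099954 to 29101261), a stress factor of the same group, read 15.80 and 15.82 with ABA on the arrays labelled gem1, 15.80 and 15.78 in GEMoe and 15.74 and 15.74 in WT. Without ABA it read 14.38 and 13.20 on the arrays labelled gem1, 14.35 and 13.76 in GEMoe and 14.58 and 13.98 in WT. The ABA arrays were nearly alike, and the untreated arrays of replicate 2 were the lowest in each genotype. NAC032 rose by 1.74 (SE 0.22, 3.34-fold, limma adjusted p = 0.00265), again up to the ceiling.

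ATAF2 (AT5G08790, chromosome 5, 2858849 to 2860262) answers to wounding and pathogens and represses genes that inactivate brassinosteroids. With ABA it read 13.33 and 12.81 on the arrays labelled gem1, 13.44 and 12.87 in GEMoe and 13.64 and 13.01 in WT. Without ABA it read 13.07 and 13.32 on the arrays labelled gem1, 13.09 and 13.72 in GEMoe and 13.12 and 13.41 in WT. The treatments overlapped, since replicate 1 was the higher one with ABA and replicate 2 the higher one without. The mean was 13.18 ± 0.33 with ABA and 13.29 ± 0.25 without (SD, n = 6 each), and the difference of -0.11 (SE 0.19) did not pass the test (limma adjusted p = 0.94).

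Among the senescence factors, NAP (AT1G69490, chromosome 1, 26122139 to 26123421), which promotes leaf senescence and feeds back on ABA synthesis and phosphatase genes, read 13.48 and 14.52 with ABA on the arrays labelled gem1, 14.18 and 14.73 in GEMoe and 13.70 and 14.23 in WT. Its untreated values were 10.75 and 10.67 on the arrays labelled gem1, 11.51 and 11.54 in GEMoe and 11.32 and 10.38 in WT. Replicate 2 was the higher one in each ABA-treated group, and no value of one treatment reached the other. NAP rose by 3.11 (SE 0.24, 8.66-fold, limma adjusted p = 0.000307).

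ORE1 (AT5G39610, chromosome 5, 15858400 to 15859788), also named NAC092 and listed as NAC6, is a central activator of age-dependent senescence whose mRNA is cut by the microRNA miR164. After ABA it read 14.25 and 14.44 on the arrays labelled gem1, 14.73 and 14.63 in GEMoe and 14.65 and 14.71 in WT. Untreated seedlings gave 11.15 and 10.49 on the arrays labelled gem1, 11.39 and 12.20 in GEMoe and 11.43 and 11.26 in WT. The 2 treatments stood well apart. Within either treatment the arrays labelled gem1 were the lowest, though without ABA their 11.15 lay close to the 11.26 of WT. The share of all loci with this order was not counted, and ORE1 did not pass the test of gem1 against WT. ORE1 rose by 3.25 (SE 0.17, 9.51-fold, limma adjusted p = 6.7e-05).

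NAC047 (AT3G04070, chromosome 3, 1061526 to 1063103) drives ethylene-dependent hyponastic leaf growth. It read 13.42 and 13.62 with ABA on the arrays labelled gem1, 13.78 and 13.44 in GEMoe and 13.75 and 13.76 in WT. The untreated arrays read 11.60 and 11.51 for the label gem1, 11.55 and 11.72 for GEMoe and 12.15 and 11.70 for WT. Values within each treatment were close together, and those of both treatments were far apart. NAC047 rose by 1.92 (SE 0.10, 3.79-fold, limma adjusted p = 8.29e-05), and its second transcript feature gave 1.97 (SE 0.11).

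The spread of the members was compared between treatments. In 9 of the 10, all but ATAF2, the SD over the 6 ABA arrays was below that over the 6 untreated arrays, against 61.4% of all loci. For RD26 this depended on the feature, since feature 2, away from the ceiling, had an SD of 0.56 with ABA and 0.21 without. NAP differed little, with 0.47 and 0.49. RD26, ATAF1, NAC102 and NAC032 had all 6 ABA arrays over 15, as had 9.57% of all loci, and their SD there ran from 0.02 for ATAF1 to 0.06 for NAC102. A small spread so near the ceiling cannot be told apart from compression of the scale. NAC019, well below the ceiling, had an SD of 0.29 with ABA and 1.11 without. Over the 12 arrays, RD26 was closest to NAC032 (Pearson r = 0.985), NAC019 and ATAF1 to RD26 (0.984 and 0.978), ORE1 to NAC047 (0.975), NAC055 and NAP to ORE1 (0.973 and 0.971) and NAC102 to NAC055 (0.929). ATAF2 correlated with the mean of the members at -0.20. These values describe 12 arrays that share the treatment and the replicate sets.

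Within single genotypes the same 9 genes were higher after ABA on average, and fewer passed the test with 2 arrays a side. On the arrays labelled gem1, 7 rose, namely NAC019, NAC055, RD26, ATAF1, NAP, ORE1 and NAC047 (background 1.18% higher). In GEMoe 6 rose, the same without RD26 (background 1.19%), and in WT 5 rose, the same without NAC019 and RD26 (background 1.06%). With the replicate number as a block, NAC102 and NAC032 passed in every genotype and all 9 rose on the arrays labelled gem1, in GEMoe and in WT, against a background of 3.72%, 3.50% and 3.33%. NAC019 gave 5.49 on the arrays labelled gem1 (SE 0.80, limma adjusted p = 0.0219) and 4.78 in GEMoe (adjusted p = 0.0364). In WT it gave 4.06 (adjusted p = 0.0633, and 0.0196 with the block). RD26 in WT gave 2.46 (adjusted p = 0.0532, and 0.0096 with the block), and its feature 2 gave 2.62 (adjusted p = 0.0398).

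ORE1, NAC047, NAP, NAC055 and ATAF1 passed in every genotype without the block. ORE1 rose by 3.53 on the arrays labelled gem1, 2.88 in GEMoe and 3.33 in WT (SE 0.29 each), and NAC047 by 1.97, 1.97 and 1.83 in the same order (SE 0.18 each). NAP rose by 3.29, 2.93 and 3.12 (SE 0.41 each), NAC055 by 2.998, 2.33 and 2.96 (SE 0.32 each) and ATAF1 by 0.71, 0.75 and 0.77 (SE 0.12 each). ATAF2 read -0.13, -0.25 and 0.06 in that order (SE 0.33 each) and passed in none. The single-genotype counts rest on few arrays. In WT the count was 0 without ABA-treated WT replicate 2, 1 without ABA-treated WT replicate 1 and 2 without untreated WT replicate 2. For gem1 it was 1 without its ABA-treated replicate 2, 3 without its ABA-treated replicate 1 or untreated replicate 2, and 4 without either ABA-treated WT array, and for GEMoe it was 2 or 3 without any of its own 4 arrays. With the block kept, the counts were 3 without the ABA-treated replicate 2 of the genotype and 3 or 4 without its untreated replicate 2. The count averaged over genotypes was 9 whichever array was left out.

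**Figure D3:**
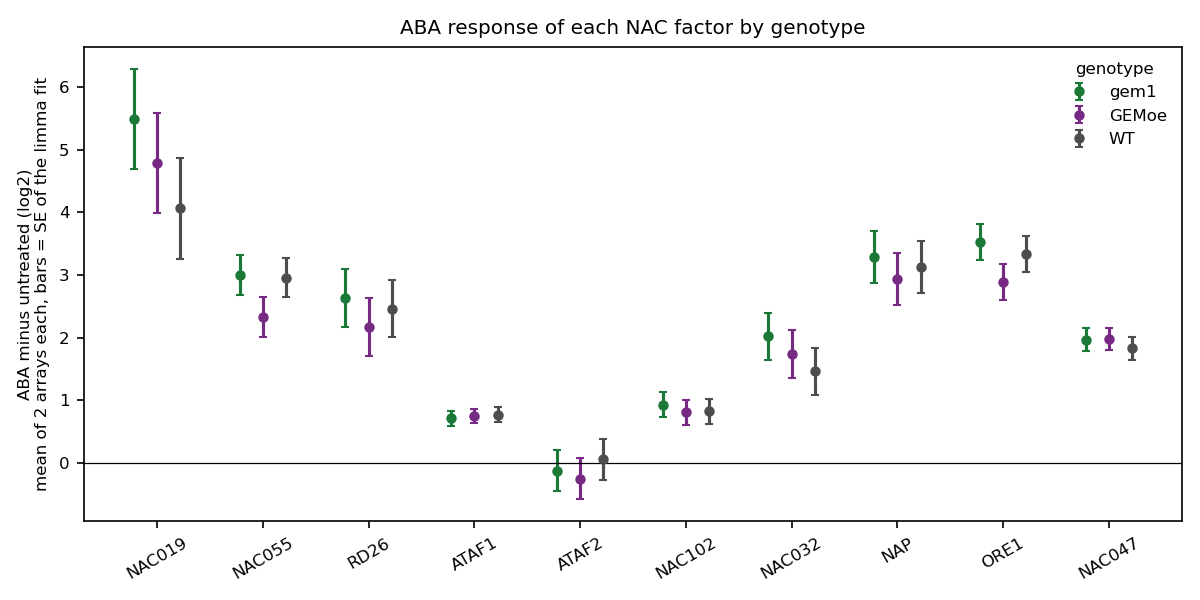
ABA minus untreated log2 expression of each NAC factor on the arrays labelled gem1, in GEMoe and in WT (points, means of 2 arrays a side, with the standard error of the limma fit as bars). The 9 genes other than ATAF2 lie above 0 in all 3 genotypes, and ATAF2 lies around 0.

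No NAC factor differed between an altered line and WT past the test. The arrays labelled gem1 and those of GEMoe were each set against WT with ABA, without ABA and averaged over both. These comparisons share the WT arrays. None of the 10 genes was called in any of the 6 by limma, with or without the replicate block, and over all loci 0% were called in 5 of them and 0.00306% for GEMoe averaged over treatments. At an unadjusted p under 0.05 there was 1 gene in all, NAC047, which gave -0.30 on the arrays labelled gem1 averaged over treatments (SE 0.13, unadjusted p = 0.0452, limma adjusted p = 1). ORE1 gave -0.43 in the same comparison (SE 0.20, limma unadjusted p = 0.0684). NAP gave 0.58 in GEMoe (SE 0.29, limma unadjusted p = 0.0836). Its 4 GEMoe values were each above the WT and gem1-labelled values of the same treatment and replicate. How many of all loci show such an order was not counted, so it adds nothing to the test.

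The largest genotype difference by size was that of NAC019 without treatment, -1.15 for the arrays labelled gem1 against WT (SE 0.80), where the WT replicates themselves differed by 2.48. With ABA the same difference was 0.28. The ABA response itself was compared between lines as an interaction. NAC019 responded by 1.43 more on the arrays labelled gem1 than in WT (SE 1.14) and by 0.72 more in GEMoe (SE 1.14). None of the 10 passed in either comparison, at any unadjusted p under 0.05, and 0% of all loci were called. With standard errors of this size for NAC019, a difference of 1 on the log2 scale was not detectable, while for ATAF1 the interaction was -0.06 for gem1 and -0.02 for GEMoe (SE 0.16 each).

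The replicate sets were also compared with each other. Averaged over treatments, set 2 against set 1 called 0 of the 10 factors by limma, with the background of 47.0% given above. At an unadjusted p under 0.05 there were 2, RD26 at -0.50 (adjusted p = 0.0749) and NAC102 at 0.21 (adjusted p = 0.0823). The count depends on the feature, since RD26 feature 2 did pass in this contrast (-0.58, SE 0.16, limma adjusted p = 0.0206 over all features). Untreated NAC019 was lower in set 2 by 0.87 to 2.48, NAC032 by 0.59 to 1.18 and RD26 by 0.93 to 1.09 in the 3 genotypes. After ABA the sets differed by -0.09 to 0.55 for NAC019, by -0.02 to 0.02 for NAC032 and by -0.02 to 0.06 for RD26, the last 2 read near the ceiling. RD26 feature 2, by contrast, gave -1.39 to -0.35 after ABA and -0.48 to -0.16 without. For NAP, NAC055 and ATAF2 the sets differed one way in all 3 genotypes after ABA, a pattern not counted over all loci. NAP was higher in set 2 by 0.53 to 1.03 after ABA and differed by -0.94 to 0.03 without. NAC055 gave -0.76 to -0.25 after ABA and -0.22 to 0.61 without, and ATAF2 -0.63 to -0.52 after ABA and 0.25 to 0.62 without. All 3 seed markers were higher in set 2, CRA1 by 1.99, AT2S3 by 0.94 and OLEO1 by 1.59 (limma adjusted p = 0.0138, 0.00415 and 0.0136), and their part in the NAC values was not tested.

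Within the replicate sets the ABA response could be read on 3 against 3 arrays, each side holding 1 array per genotype. The p-values of these contrasts therefore rest on how alike the genotypes were, not on repeats of a group within a set. In set 2, 9 of the 10 factors were higher and ATAF2 lower, against 9.50% of loci higher and 11.3% lower. In set 1 all 10 were higher (background 6.98%). ATAF2 fell by 0.59 in set 2 (SE 0.10, limma adjusted p = 0.00325) and rose by 0.37 in set 1 (SE 0.10, adjusted p = 0.0399). The 3 pairs of set 2 gave -0.51 for gem1, -0.85 for GEMoe and -0.40 for WT, and those of set 1 gave 0.26, 0.34 and 0.52. A rise in set 1 with a fall in set 2 therefore appeared in every genotype, as at 1.07% of all loci. That share counts this order of directions only, not the reverse. The difference of -0.96 between the sets passed the test (SE 0.14, limma adjusted p = 0.0127, background 2.34% either way). The rise in set 1 missed the threshold without any one of the 6 arrays of set 1, and without ABA-treated WT or gem1 replicate 2. The fall in set 2 and the difference kept their calls whichever of the 12 arrays was left out.

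RD26 was the other member whose response differed between the sets, rising by 2.94 in set 2 and 1.90 in set 1, a difference of 1.05 (SE 0.15, limma adjusted p = 0.0128). This value rests on a feature near the ceiling after ABA. Feature 2 gave -0.52 (adjusted p = 0.528), the opposite sign, but its untreated values of 7.45 to 7.96 lie near the bottom of the scale, and feature 3 gave 1.03 (adjusted p = 0.1). NAC019 responded by 5.73 in set 2 and 3.83 in set 1, a difference of 1.90 (SE 0.54, limma adjusted p = 0.141), which passed without untreated gem1 replicate 1 (2.39, adjusted p = 0.0473). NAP gave a difference of 1.03, NAC032 of 0.79, NAC055 of -0.75 and NAC102 of -0.39, with limma adjusted p between 0.0744 and 0.35. ORE1 and NAC047 differed by 0.06 and 0.08, less than their standard errors.

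**Figure D4:**
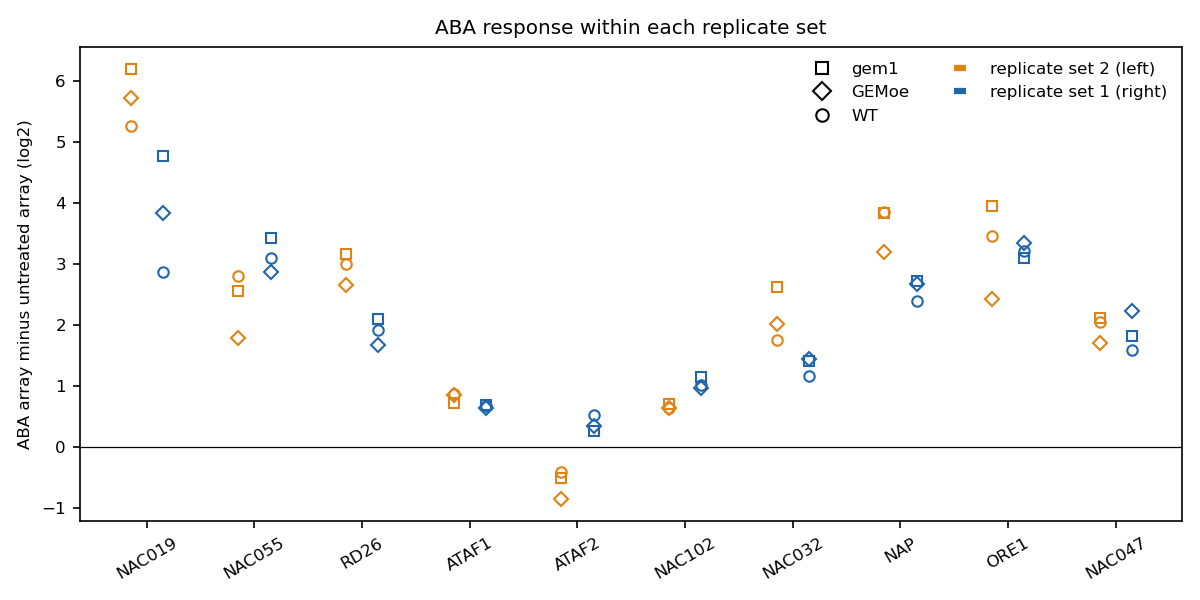
ABA minus untreated log2 expression of each NAC factor within each pair of arrays of a genotype and a replicate set, with set 2 (orange) left of set 1 (blue) and the symbols giving the genotype. In ATAF2 all 3 pairs of set 2 lie below 0 and all 3 of set 1 above it.

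Across the NAC family, the 10 factors were set beside the other 91 loci that the annotation names as NAC genes. By the size of the ABA change averaged over genotypes, NAC019, ORE1, NAP and NAC055 held ranks 1 to 4 of 101, RD26 rank 6, NAC047 rank 8, NAC032 rank 12, NAC102 rank 18, ATAF1 rank 19 and ATAF2 rank 77. The order is a description, since 4 of the genes end near the ceiling. Of the other 91 loci 12 rose and 6 fell, beside 5.60% of all loci higher and 5.20% lower. With the replicate block 21 rose and 11 fell, beside 9.27% of all loci higher and 12.9% lower. The falls were near the shares of all loci. The median of the other 91 loci was 0.07. NAC087, which promotes programmed cell death in the root cap, led them with 2.69 (SE 0.39, limma adjusted p = 0.00464). NAC080 gave 2.02 (SE 0.36), NAC060, a factor in sugar and ABA signalling of seedlings, gave 1.78 (SE 0.18), NAC074 gave 1.76 (SE 0.42) and the membrane-bound NAC089 gave 1.47 (SE 0.15), with limma adjusted p between 0.00105 and 0.0369. Each had all its ABA arrays above its untreated arrays, as had 6.14% of all loci. They were named for a large called change on the same arrays, so this adds nothing to the test.

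**Figure D5:**
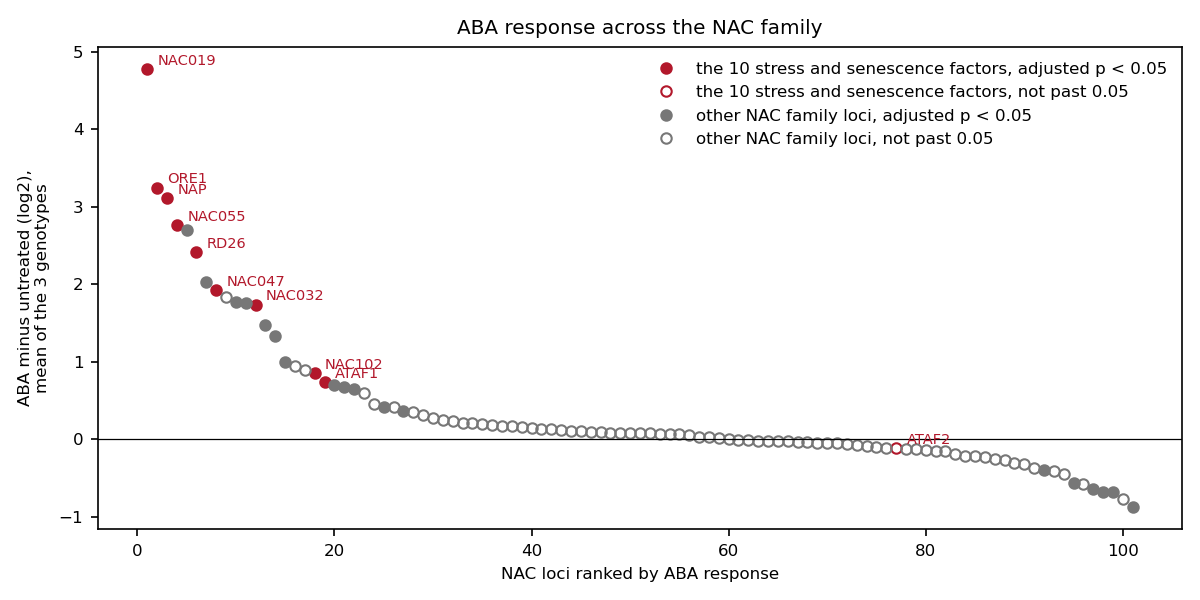
ABA minus untreated log2 expression, averaged over the 3 genotypes, of the 101 NAC loci in order of size. The 10 stress and senescence factors are red and named, the other 91 grey, and filled points passed an adjusted p of 0.05.

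Some members have a NAC gene as their chromosomal neighbour, and these were looked at after the values were seen. NAM, beside NAC019, read 12.05 to 12.28 with ABA and 10.65 to 11.58 without, and rose by 1.00 (SE 0.20, limma adjusted p = 0.0182), against 4.78 for NAC019. NAC056, beside NAC055, read 11.26 to 12.01 with ABA and 11.24 to 12.33 without (-0.14, limma adjusted p = 0.777). NAC046, beside NAC047, gave 0.21 (limma adjusted p = 0.179). Near relatives share sequence, and how far the probes tell them apart was not tested.

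Of 12 other NAC factors of stress or senescence, 4 rose and none fell, with a median of 0.16, beside 5.60% of all loci higher and 5.20% lower. They were NAC087, NAC013 of mitochondrial stress signalling (1.33, SE 0.19), NTL4 of drought-induced leaf senescence (0.42, SE 0.06) and VNI2 of vessel formation and leaf ageing (0.37, SE 0.08). Among 5 NAC genes other than ORE1 that miR164 targets, NAC080 rose, and NAC100 gave 1.83 (SE 0.51, limma adjusted p = 0.062, and 0.0129 with the block). The list held 1 higher member, or 2 with the block, and its median was 0.08.

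Of 13 genes listed as upstream regulators of the members, 4 rose and 1 fell (median 0.13), beside those same shares of all loci. All 4 that rose are bZIP factors of ABA signalling, while EEL, another bZIP factor of the list, gave 0.13 (SE 0.20, limma adjusted p = 0.894). ABI5 read 14.36 to 14.69 with ABA and 11.53 to 12.48 without, and rose by 2.53 (SE 0.22, limma adjusted p = 0.000555). ABF2 rose by 1.19 (SE 0.11), ABF3 by 1.12 (SE 0.16) and ABF4 by 0.82 (SE 0.08). None of them overlapped between treatments. All ABA arrays lay above all untreated arrays at 6.14% of all loci, and genes named for passing the test tend to show it. The gene that fell was GLK1, a chloroplast development factor, by 0.26 (SE 0.05, limma adjusted p = 0.0213), named after its value was seen. ORE1 and ATAF1 are reported to oppose GLK1, which does not place it upstream of them, so its fall is not that of an upstream regulator. The ethylene, light and jasmonate regulators in the list, from EIN2 to MYC2, did not pass.

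Of 22 genes reported as targets of the members, 10 rose and 1 fell (12 and 2 with the block), with a median of 0.37 against -0.03 over all loci. Over all loci 5.60% were higher and 5.20% lower, or 9.27% and 12.9% with the block. SWEET15, a sugar transporter also named SAG29, read 15.04 to 15.64 with ABA and 8.97 to 11.54 without, and rose by 5.02 (SE 0.45, limma adjusted p = 0.000653). HAI1, a phosphatase that restrains ABA signalling and a reported NAP target, read 15.78 to 15.88 with ABA and 9.84 to 13.93 without, and rose by 3.92 (SE 0.95, limma adjusted p = 0.0381). Untreated HAI1 split by replicate, with 13.60 to 13.93 in replicate 1 and 9.84 to 10.18 in replicate 2, and its ABA values lay near the ceiling. NCED3, the rate-limiting enzyme of ABA synthesis under drought, rose by 2.11 (SE 0.30), and ACS2, an enzyme of ethylene synthesis, by 1.57 (SE 0.24). The gene that fell was BAS1, which inactivates brassinosteroids and is a reported ATAF2 target, by 0.70 (SE 0.17, limma adjusted p = 0.0377), named after its value was seen. SOB7, which also inactivates brassinosteroids and is in the same list, rose by 0.86 (SE 0.09, limma adjusted p = 0.0014) and was named after its value was seen too.

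Of 13 markers of leaf senescence 3 rose and none fell (median 0.26), beside the same 5.60% and 5.20% of all loci. With the block 4 rose, the added one being SRG1 (0.57), beside 9.27% of all loci higher. DIN2, a dark-induced glucosidase, read 11.01 to 12.74 with ABA and 9.42 to 10.37 without, and rose by 2.20 (SE 0.34, limma adjusted p = 0.00621). CV, a chloroplast vesiculation gene, rose by 1.81 (SE 0.15), and WRKY6, a senescence-linked factor, by 0.38 (SE 0.07) from a level over 15. The classic late marker SAG12 gave 0.07 (SE 0.07, limma adjusted p = 0.72). In all these lists no member was called between an altered line and WT, untreated, with ABA or averaged. Over all loci 0% were called there too, or 0.00306% for GEMoe averaged over treatments, so the absence of calls is not particular to the lists.

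The loci with a symbol whose course over the 12 arrays was closest to the mean of the 10 members were GLR1.3 (Pearson r = 0.993), a glutamate receptor-like channel, UGT89B1 (0.991), a flavonol glucosyltransferase, MYB305 (0.990), SSP4b (0.990), a phosphatase, and CAD1 (0.989), annotated as a cinnamyl-alcohol dehydrogenase. Their ABA changes averaged over genotypes were 1.299, 2.74, 3.36, 0.87 and 0.97. The correlation describes 12 arrays dominated by a single treatment.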

How the data were processed

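Each of 12 one-colour arrays carried the RNA of a whole-seedling sample. Per the submitters' processing notes, the deposited log2 values are the authors' RMA values, of no stated version. The log2 scale itself was taken from the range of the values. RMA equalises array distributions, so a change in total RNA would not be seen. The deposited probe number per feature is called other here and served as a description only. No array design or genome build was stated, no saturation flags were used, and precision is limited by the number of arrays.

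The 37118 features gave 32627 loci, and for 3602 loci with several features the one with the highest mean was used. The test was limma 3.58.1 (R 4.3.3, lmFit and eBayes) on the 6 group means of all 12 arrays, two-sided, adjusted by Benjamini-Hochberg over all loci, threshold 0.05. Set contrasts used treatment by replicate number plus genotype, so that the genotypes stood in for repeats within a set. Nothing shows whether the biological replicates came from separate cultures, so p-values measure the spread between these samples. Deviations of same-numbered replicates correlated in all 15 pairs of groups, 0.44 to 0.88, so the numbers were taken to pair the samples. Blocked counts are printed where a printed count changes, and blocked p-values for some of the genes behind it.

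Named were all 10 members, up to 4 called members of each list by size of the averaged ABA change (or else 2), the 5 other NAC genes with the largest called change, and the 5 loci closest in course. Members and lists were chosen with earlier results of these data known. Gene names came from the array annotation and the TAIR10.1 gene table. The fit was tested on simulated data. Figures were drawn with matplotlib 3.10.9. Alternatives were the block, the contrast's arrays alone, a variance trend, no dim loci, other scalings, single features, the whole-series table and each array left out. No promoter or protein sequences were used here.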

Additional observations from a re-analysis of the deposited data

Results flagged for a closer look

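ATAF2 drew attention because its ABA response had opposite directions in the replicate sets. The response in set 2 was lower than that in set 1 by a difference of -0.96 on the log2 scale (interaction term of limma, adjusted p = 0.0127), with all 3 pairs of set 2 below 0 and all 3 of set 1 above. RD26 was the other case, with a difference of 1.05 (limma adjusted p = 0.0128) on a feature near its ceiling after ABA. Its feature 2, farther from the ceiling but near the bottom of the scale without ABA, gave -0.52 (limma adjusted p = 0.528). The labels give the sets no difference other than their number, and no cause was tested.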

How the results depend on the processing

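Of the member counts, most kept to within 1.5 times under every setting. In WT the ABA count of 5 was 9 with the replicate block. Fitting only the arrays of the contrast gave 0 members in WT, gem1 and GEMoe, with 4 arrays to estimate the spread. With a variance trend the set contrast called 2 members and the set difference of the ABA response 4. The miR164 list held 2 called members with the block, and the block ended no call. RD26 feature 2 turned the set difference to -0.52. The 2 alternative scalings and the whole-series table reversed none of these results. Leaving out single arrays gave 0 to 7 members in WT, 1 to 7 in gem1 and 2 to 6 in GEMoe, or 3 to 9 in each with the block kept, which was added after the data were seen. It gave 9 averaged over genotypes, 9 to 10 in set 1, 10 in set 2, 2 to 3 for the set difference and 0 for the set and genotype contrasts, with or without the block. Signs turned in values that had no call: ATAF2 ran from -0.26 to 0.37 in WT (-0.26 to 0.38 with the block), -0.39 to 0.13 in gem1 (-0.38 to 0.13), -0.57 to 0.06 in GEMoe (-0.68 to 0.17), -0.25 to 0.035 on average with the block and -0.23 to 0.017 between sets. ORE1 ran from -0.14 to 0.16 between sets and -0.25 to 0.45 in the set difference, and NAC047 from -0.061 to 0.19 in the set difference. Values over 15 limit what a rise can show.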
